A study of Arabidopsis thaliana with 8 samples.

Results

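Chitinases are plant enzymes that cut chitin, the polymer of N-acetylglucosamine found in fungal walls and insect cuticles, and beta-1,3-glucanases cut the beta-1,3-linked glucan of fungal walls and of callose, the wound polymer of plants. Many genes of both kinds are induced by pathogens and by defence hormones, and the fragments their enzymes release can be sensed by plant receptors. Plant chitinases fall into the glycoside hydrolase families GH19, which holds classes I, II and IV, and GH18, which holds classes III and V, whereas plant beta-1,3-glucanases belong to family GH17. The genes described here were 10 loci listed by name, the glucanase gene AT4G16260 and 9 chitinase genes, among 13333 loci that a probe set of the array named alone. The 10 were picked from the gene families with their iodide over control log2 ratios on these arrays in view, so those ratios, which are the values the genes were chosen by, are given as a description. Of these 10, 8 had such a probe set. Below, a gene is said to have a probe set only if one names it alone in the platform table. The class IV gene EP3 (AT3G54420) and the class III gene CHIA (AT5G24090) had none in the platform table and were not analysed here.

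Transcripts were read in shoots (rosette leaves) and roots of 3-week-old hydroponic Arabidopsis plants of the Col-0 ecotype, each sample being a pool of 3 plants. Control plants stayed on the base nutrient solution, in which iodine was present only as a contaminant at no more than 8 nM, and the others received the same solution with 10 μM KBr, NaI or KI for 48 h. KBr tested for a response to another halide, and KBr and KI shared potassium. There was 1 ATH1 array for each of the 4 treatments in each organ, 8 in all, so no value below has a replicate, an SD or a p-value, and folds describe these arrays. Signals were MAS5 intensities on a linear scale, with array medians of 168 to 193. A signal of 100 was taken as the level above which a gene counted as well expressed.

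A gene was called higher or lower when its signal differed from the control of the same organ at least 4-fold, a log2 ratio of 2 in size, with the brighter of both signals at 100 or more. A call was iodide-specific when both iodide salts gave it, in 1 direction, and KBr did not. All 8 genes reached 100 on at least 1 shoot array, and 7 did so in root, where AT2G43580 did not. Of 10 listed genes that mark root tissue, 6 had a probe set, and these 6 reached 100 in root and 1 did in shoot. None of the 10 listed leaf genes had one, so the shoot label could not be checked in that way. The 8 probe sets have identifiers of the plain type, without the suffix that marks a set shared by several transcripts. Probe sequences were not analysed here, so how far related genes contributed to each other's signals was not tested.

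**Figure D1:**
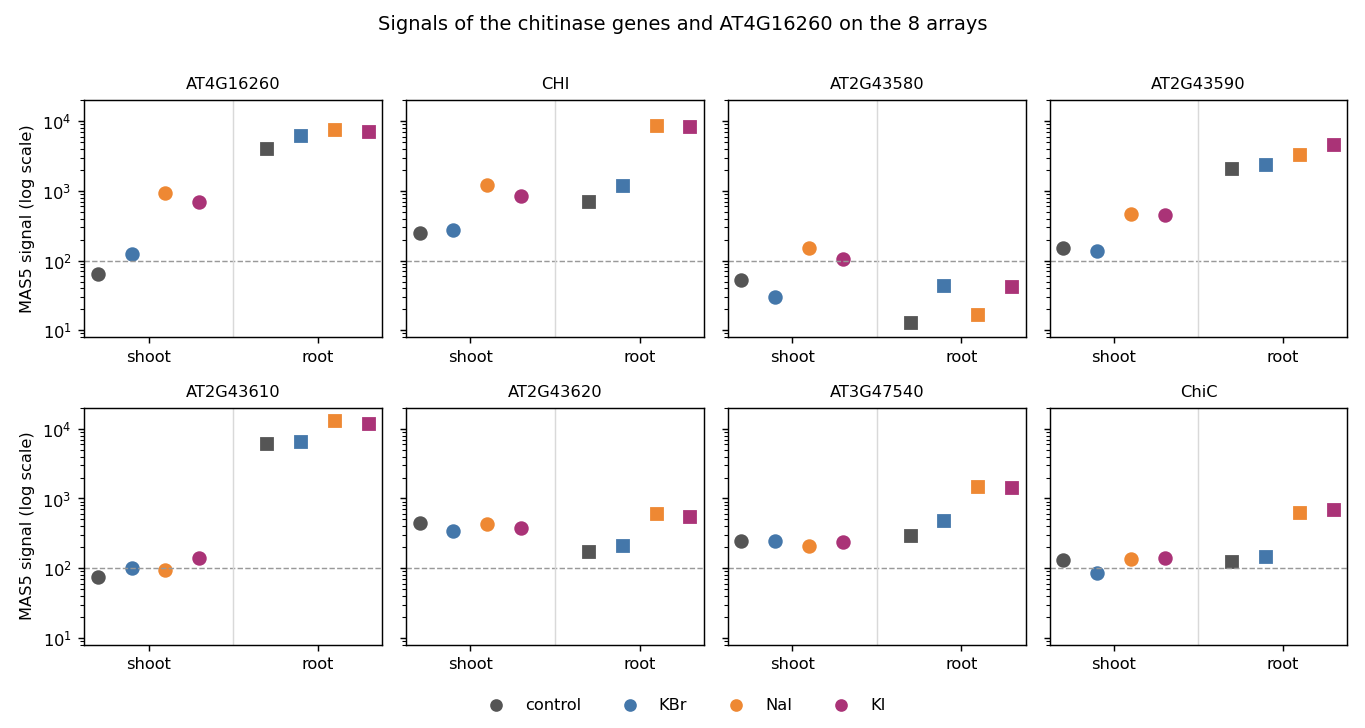
MAS5 signal (log scale) of each gene on the 8 arrays, circles for shoot and squares for root, coloured by treatment, 1 array per point; the dashed line marks a signal of 100. AT4G16260 stood at 63.8 in control shoot and at 3989 or more on every root array, whereas CHI was raised on the iodide arrays of both organs.

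The glucanase gene AT4G16260 had the highest iodide ratios of the 8 genes in shoot. Its shoot signal was 63.8 (control), 125 (KBr), 918 (NaI) and 689.5 (KI). Both iodide arrays thus lay above the control and KBr arrays, and the folds over control were 14.4 in NaI and 10.8 in KI, against 1.96 in KBr. By its mean log2 ratio over both iodide salts, 3.64, it ranked 12 among 14761 shoot probe sets that reached 100. It was the only one of the 8 genes called iodide-specific in shoot, where 0.115% of all probe sets were called higher in this way. The control signal was under 100. With signals under 100 raised to 100 the log2 ratios were 3.20 in NaI and 2.79 in KI, and against the KBr array they were 2.88 and 2.46. The call ends when both arrays compared must reach 100.

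In root the same gene was already abundant without salt. Its root signal was 3989 (control), 6108 (KBr), 7405 (NaI) and 7046 (KI). All 3 salts lay above control, by 1.53-fold in KBr, 1.86-fold in NaI and 1.77-fold in KI, and none reached 4-fold. Over KBr the log2 ratios were only 0.28 in NaI and 0.21 in KI. In untreated plants the root signal was 62.5 times the shoot signal, and with NaI and KI this ratio was 8.06 and 10.2. The 6 root marker genes with a probe set had a summed shoot signal of 453 (control), 346 (KBr), 199 (NaI) and 288 (KI). Most of this sum came from PYK10, at 364, 327, 168 and 249 in the same order. The other marker genes stayed under 100 in shoot. What these signals have to do with AT4G16260 in shoot was not tested. According to the methods, rosette and root RNA were extracted by different procedures, so organ and extraction cannot be told apart in any ratio of root over shoot.

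CHI (AT2G43570), a GH19 chitinase, was raised by iodide in both organs, and more in root. Its root signal was 688 (control), 1157 (KBr), 8574 (NaI) and 8356 (KI). The iodide signals differed little from each other and lay 12.5-fold and 12.1-fold above control, whereas KBr lay 1.68-fold above it. The gene ranked 107 among 14992 root probe sets that reached 100, with a mean iodide log2 ratio of 3.62. Against KBr the log2 ratios were still 2.89 in NaI and 2.85 in KI. In shoot CHI was at 245 (control), 278 (KBr), 1234 (NaI) and 849.7 (KI). These are folds of 5.04 in NaI and 3.47 in KI, so in shoot the gene was called higher for NaI (0.359% of all probe sets) and, with a log2 ratio of 1.80, not for KI (0.535%). It ranked 69 in shoot, and KBr lay 1.13-fold above control there.

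CHI opens a run of 6 neighbouring genes on chromosome 2, from AT2G43570 to AT2G43620 in the RefSeq gene order of assembly TAIR10.1, all GH19 chitinases and 5 of them among the genes described here. AT2G43590, the third of the run, was at 152 (control shoot), 137 (KBr), 470.4 (NaI) and 450.2 (KI). Both iodide signals were close to each other, at 3.10 and 2.97 times control, and apart from KBr, but under 4-fold. In root it was at 2039 (control), 2319 (KBr), 3239 (NaI) and 4585 (KI), or 1.59-fold and 2.25-fold above control. It was thus 13.5 times as high in root as in shoot without salt and its iodide folds were smaller there.

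AT2G43580, next to CHI, was dim. In shoot it was at 52.7 (control), 29.6 (KBr), 153 (NaI) and 107 (KI), so that only the iodide arrays passed 100. Its fold over control was 2.91 in NaI and 2.03 in KI, and with signals under 100 raised to 100 the KI log2 ratio was 0.10. In root its 4 signals lay between 12.5 and 43.0, too low for a ratio to be read.

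AT2G43610 had the largest organ difference of the 8 genes, 81.1-fold higher in root than in shoot without salt. Its root signal was 5955 (control), 6571 (KBr), 12802 (NaI) and 11917 (KI). The NaI signal was 2.15 times the control signal and the KI signal just over 2-fold above it, and both were above KBr. In shoot it was near 100 throughout, at 73.4, 99.4, 92.8 and 138 in the same order, and the NaI signal was under that of KBr.

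AT2G43620, the last gene of the run, differed in the opposite sense between organs. Its shoot signal was 444 (control), 341 (KBr), 424 (NaI) and 375 (KI), so that all 3 salts were somewhat below control and the iodide signals lay between those of KBr and control. In root it was at 173, 208, 593 and 549.9, with NaI and KI at 3.43 and 3.19 times control. In untreated plants it was 2.57 times as high in shoot as in root, and on the iodide arrays root stood above shoot, by 1.40-fold in NaI and 1.47-fold in KI. The remaining gene of the run, AT2G43600, was at 316 (control root), 271 (KBr), 361 (NaI) and 346 (KI), and between 1.17 and 15.5 on the shoot arrays.

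AT3G47540, a GH19 chitinase outside the run, was raised by iodide in root. Its root signal was 292 (control), 468 (KBr), 1463 (NaI) and 1426 (KI). The iodide arrays were 5.01-fold and 4.88-fold above control, and KBr was 1.60-fold above it. Against KBr the log2 ratios fell to 1.64 and 1.61, under the 4-fold criterion. Its shoot signals were 243, 248, 207 and 240.3 in the same order, and the iodide log2 ratios there were -0.23 and -0.02.

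ChiC (AT4G19810), a class V chitinase of family GH18, gave much the same picture. It was at 121 (control root), 143 (KBr), 623 (NaI) and 677 (KI), which is 5.16-fold and 5.61-fold above control and 1.19-fold in KBr. Over KBr the log2 ratios were 2.12 in NaI and 2.24 in KI. In shoot it was at 129.6 (control), 85.7 (KBr), 133 (NaI) and 142 (KI). The shoot iodide signals were within 1.10-fold of control. Its control signals in shoot and root were nearly the same, with root at 0.932 times shoot, and on the iodide arrays root stood 4.68-fold (NaI) and 4.77-fold (KI) above shoot.

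**Figure D2:**
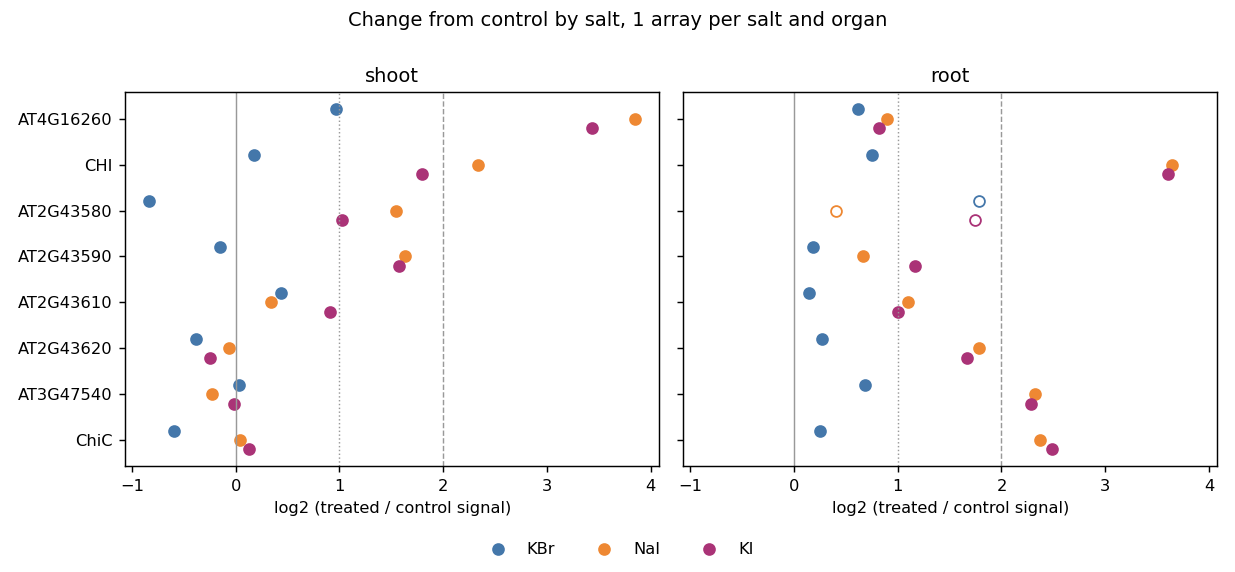
Log2 ratio of treated over control signal of each gene in shoot and root, by salt, with 1 array for each salt and control; dotted and dashed lines mark 2-fold and 4-fold, and open symbols a gene that stayed under 100 in that organ. In shoot AT4G16260 passed the dashed line in NaI and KI and CHI in NaI, and in root CHI, AT3G47540 and ChiC passed it in both.

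Set side by side, 3 of the 7 genes that reached 100 in root were called iodide-specific and higher there, CHI, AT3G47540 and ChiC, where 2.26% of all root probe sets were so called, and the same 3 made up the calls of each iodide salt taken alone (2.55% of all in NaI and 2.6% in KI). With 2-fold as the criterion, 5 of 7 were higher in both NaI and KI, against 5.6% of all, and in shoot 4 of 8, against 1.27%. The shoot genes of that count were AT4G16260, CHI, AT2G43580 and AT2G43590. The root genes were CHI, AT2G43610, AT2G43620, AT3G47540 and ChiC. Which genes fall in each count depends on the cutoff. In root AT4G16260 was at 1.86-fold in NaI and 1.77-fold in KI, and AT2G43590 at 1.59-fold and 2.25-fold. The share of all probe sets that passed 2-fold in both organs is not given here. None of the genes was iodide-specific and lower, against 0.122% of all probe sets in shoot and 0.574% in root, or 2-fold lower in both iodide salts, against 0.82% and 3.23%. Both iodide arrays lay above both the control and the KBr array for 7 of 7 genes in root, against 25.3% of all probe sets, and for 5 of 8 in shoot, against 29.8%. ChiC counts among these 5 by a difference of a few signal units. The genes were chosen with results of these arrays known, so these counts describe the genes and give no independent evidence of a direction. Against the KBr array in place of control, CHI and ChiC remained 4-fold higher in both iodide salts in root, against 1.71% of all probe sets. In shoot AT4G16260 did, against 0.0474% of all.

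Medians of the log2 ratios describe the genes as a group. Over the 7 root genes the NaI median was 1.78, the KI median 1.67 and the KBr median 0.27, and over all 14992 root probe sets -0.06, -0.07 and 0.00. Over the 8 shoot genes they were 0.94, 0.96 and -0.06, in that order, and over all 14761 shoot probe sets 0.02, 0.05 and -0.01. Within the group the spread was wide, from 0.67 to 3.64 for NaI in root and from -0.23 to 3.85 in shoot. The shoot medians rest in part on dim signals and came to 0.33 for NaI and 0.30 for KI with signals under 100 raised to 100. In root the summed signal of the 6 root marker genes was 38594 (control), 42380 (KBr), 27438 (NaI) and 28310 (KI), lower in both iodide salts than in control or KBr. Of the 6, 4 were below control in both iodide salts, whereas AT5G66390, a peroxidase gene, was above it in both and PYK10, a beta-glucosidase gene, was below it in NaI and above it in KI. The part this has in the result was not tested.

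Ratios in KBr were smaller. Of the genes that reached 100 in an organ, 0 were 2-fold higher or lower there in KBr. Of all probe sets, 0.387% were 2-fold higher and 0.5% lower in root, and 0.454% and 1.29% in shoot. In root all 7 genes lay above control in KBr, by log2 ratios of 0.14 to 0.75, where 50.3% of all probe sets did. The central 95% of root probe sets lay between -0.72 and 0.68 in KBr, and CHI at 0.75 was just outside. In shoot that range was -0.86 to 0.67, and AT4G16260 at 0.97 was outside it, with 4 of the 8 genes above control. With 1 array per treatment, a small response to KBr and low control signals of these genes cannot be told apart.

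NaI and KI gave similar values. In root the log2 ratio of KI over NaI was between -0.11 and 0.50, and the highest was that of AT2G43590. In shoot it ran from -0.54 for CHI to 0.57 for AT2G43610, and 5 of the 8 genes were higher in NaI, among them the 4 that were at least 2-fold above control in both. The central 95% of all probe sets lay between -0.57 and 0.63 in root and between -0.76 and 1.01 in shoot, so none of the genes stood apart from the rest in this comparison.

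**Figure D3:**
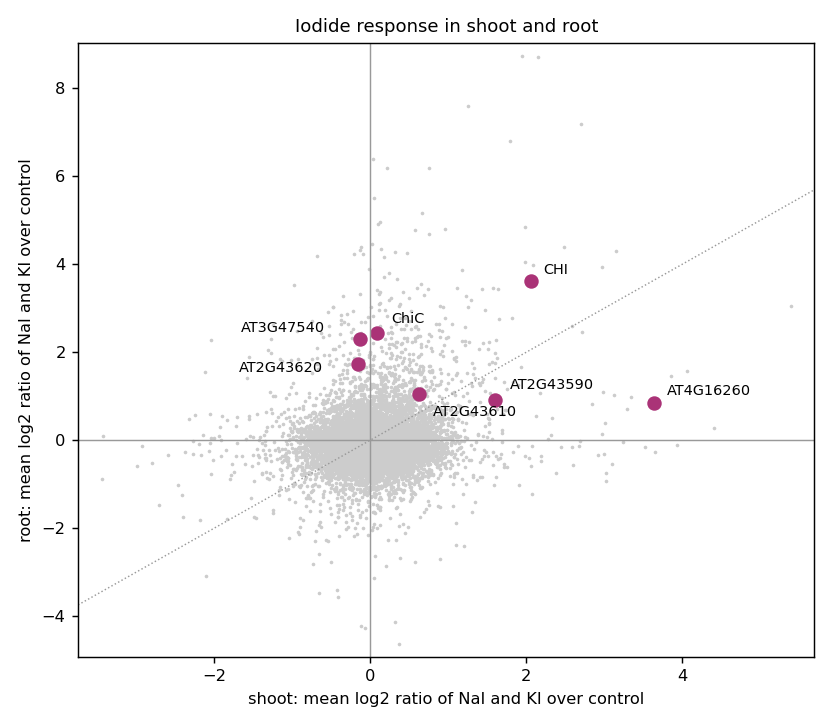
Mean log2 ratio of NaI and KI over control in shoot (horizontal axis) and root (vertical axis) for the 7 genes that reached 100 in both organs, over all 12809 probe sets that did (grey); the dotted line marks equal ratios. AT4G16260 lies far below the line, at 3.64 in shoot and 0.86 in root, and AT3G47540, ChiC and AT2G43620 lie near 0 in shoot and above 1.7 in root.

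The genes with the highest iodide ratios were not the same in both organs. For the 7 genes that reached 100 in both, the mean iodide log2 ratio of shoot was subtracted from that of root. The share of all probe sets with the larger ratio in root is not given here. The difference of root minus shoot was 2.43 for AT3G47540, 2.34 for ChiC, 1.88 for AT2G43620, 1.56 for CHI and 0.43 for AT2G43610. It was -0.68 for AT2G43590 and -2.78 for AT4G16260. Without salt, 5 of the 8 genes were higher in root than in shoot, where 56.7% of 16944 probe sets were. Among the genes that reached 100 in either control, the ratio ran from 81.1-fold higher in root for AT2G43610 to 2.57-fold higher in shoot for AT2G43620. AT2G43580, under 100 in both controls, was 4.22-fold higher in shoot. With 1 array per condition these differences between organs were not tested.

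Over the 8 arrays, the log2 signals of AT4G16260 and AT2G43590 had a Pearson correlation of 0.98. Those of AT2G43590 and AT2G43610 had 0.95, those of ChiC and AT3G47540 0.95 and those of CHI and ChiC 0.94. AT2G43620 had one of -0.12 with AT4G16260. The lowest was -0.64, between AT2G43610 and the dim AT2G43580. These values describe 8 arrays of 2 organs and carry organ differences as much as responses to salt. Among 9313 probe sets that name 1 gene and reached 100 on some array, those most like AT4G16260 in this measure were AT1G67920, AT1G64405, AT1G65020, AT5G49780 and AT4G19980, with correlations of 0.995 to 0.988. AT1G67920 and AT1G65020 reached 100 on a shoot array. In shoot AT1G64405 (27.1 to 94.7), AT5G49780 (1.94 to 48.9) and AT4G19980 (2.44 to 42.5) stayed under 100. AT1G67920, the closest, was at 64.6, 80.5, 205 and 167 in control, KBr, NaI and KI shoot and between 352 and 498 in root. Most like CHI were AT5G48540, ATERDJ3B, AT1G57630, AT5G22530 and AT3G54150, at 0.988 to 0.98. ATERDJ3B, a DnaJ chaperone of the endoplasmic reticulum, was at 2135, 2168, 2644 and 2520 in shoot and 2425, 2592, 3344 and 3025 in root, so a high correlation did not mean a large change.

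The rest of the families was looked up from lists of loci. Of 7 further GH19 genes 4 had a probe set, and in root all 4 lay above control in NaI and KI. Of all root probe sets, 44.5% lay above control in NaI and 42.4% in KI, each salt taken alone. The share above control in both salts is not given here. The mean iodide log2 ratios of the 4 ran from 0.16, for AT2G43600, to 1.60. AT1G02360 was at 1050.2 (control root), 1315 (KBr), 2861 (NaI) and 3552 (KI), and AT4G01700 at 811, 834, 2024 and 1845. Both were over 2-fold and under 4-fold above control in iodide. In shoot AT4G01700 was at 327.5, 319, 612 and 569.7, and AT1G02360 stayed near 100, between 58.0 and 104. Of 8 further GH18 genes, all neighbours of ChiC by locus number, 4 had a probe set and 1 reached 100 in root, AT4G19720, at 327, 289, 1652 and 1814. Its log2 ratios of 2.34 in NaI and 2.47 in KI, with -0.18 in KBr, made it iodide-specific by the same criterion, and in shoot it was under 40 on all arrays.

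The other GH17 genes that a probe set named alone, relatives of AT4G16260, held no iodide-specific call. Of 49 listed, 39 were so named in the platform table. The other 10 were not, and their response was not analysed here. Among them was the pathogenesis-related glucanase gene BGL2 (AT3G57260), for which the paper lists qPCR primers. The paper reports qPCR on selected genes that its array analysis gave as up- or down-regulated by iodide. The lack of calls among the other GH17 genes therefore does not extend to BGL2. Of the 39, 25 reached 100 in root and 20 in shoot. Of these, 0 were called iodide-specific in either organ and 0 were 2-fold higher in both iodide salts. Their median log2 ratios in root were -0.06 in NaI and KI, and in shoot -0.01 and -0.05. The mean iodide log2 ratio was highest at 0.85 in root and 0.75 in shoot. AT3G04010 was the exception in the lower direction, at 199 (control shoot), 107 (KBr), 85.9 (NaI) and 72.8 (KI). In root the brightest of the list, AT5G55180, was at 1769, 1733, 2498 and 2463, and AT2G05790 at 1991, 2226, 1848 and 1677.

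**Figure D4:**
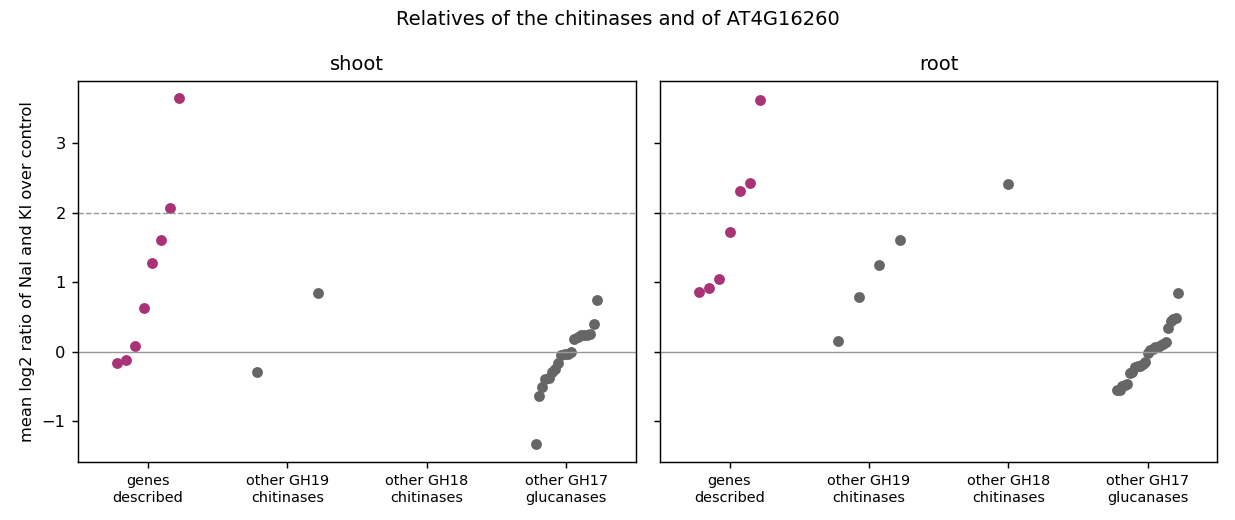
Mean log2 ratio of NaI and KI over control for the genes described and for the further GH19, GH18 and GH17 genes that reached 100 in shoot or root, 1 point per gene; the dashed line marks 4-fold. In root the further GH19 genes lie between 0.16 and 1.60 and the 1 GH18 gene at 2.41, whereas the GH17 genes lie between -0.55 and 0.85.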

How the data were processed

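The authors computed the deposited intensity values with MAS5 from ATH1 arrays hybridised with shoot and root RNA, 1 array per treatment and organ. Trimmed by 2% at either end, the deposited signals of an array averaged 494 to 496, and 58.5% to 61.7% of probe sets reached 100. No further normalization was applied. Of 22810 rows, 64 Affymetrix controls were left out. Genes were named from the platform table and from RefSeq (TAIR10.1, names and gene order only), so that 13484 probe sets stood for 1 locus. Log2 ratios of treated over control signal were taken within an organ. The fold and the signal of 100 follow the study's methods, which also asked for a detection p, not used here, and do not say on which array 100 had to be reached. Named relatives were up to 4 genes per list and organ with a 2-fold change in both iodide salts, or else the 2 brightest, and the 5 probe sets most like AT4G16260 and CHI. Genes and lists were chosen with earlier results of these data known, AT2G43600, and AT1G67920 and ATERDJ3B among the like genes, being given in full after their values were seen. The number of arrays, 1 for each condition, limits the precision. Computation used Python 3.11.15 with pandas 2.3.3, numpy 2.4.6 and scipy 1.17.1, and plots matplotlib 3.10.9.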

Additional observations from a re-analysis of the deposited data

Results flagged for a closer look

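For a pair of genes both iodide arrays lay above control in root and below control in shoot. For AT3G47540 the mean iodide log2 ratio of root minus that of shoot was 2.43, with shoot ratios of -0.23 in NaI and -0.02 in KI. For AT2G43620 it was 1.88, with shoot ratios of -0.06 and -0.24, which were 0.31 and 0.13 with the KBr array as baseline, so that the opposite direction in shoot held against control and not against KBr. The shoot ratios are small. They lie inside the central 95% of all shoot probe sets, -1.04 to 1.05 in NaI and -0.97 to 1.14 in KI. The share of all probe sets above control in root and below it in shoot is not given here. The difference between organs was not tested, as there was 1 array per salt and organ.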

How the results depend on the processing

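No paired analysis was possible because each group had 1 array and no test was run. Of 112 comparisons of a count or a median with another setting, 98 stayed within 1.5 times (counts) or within 0.5 on the log2 scale (medians). No such value turned its direction. The tolerance was a fixed value and not a measured spread. All settings used the same arrays, so these comparisons carry no information on the spread between replicates. When both arrays had to reach 100, the shoot count of iodide-specific genes was 0 in place of 1, that of genes 2-fold higher in both iodide salts 2 in place of 4, the shoot medians 0.041 in NaI and 0.13 in KI, and the median log2 ratio of root over shoot in control 0.26 in place of 0.88. With signals under 100 set to 100 the shoot medians were 0.33 and 0.30, and with 100 added to each signal the KI median in shoot was 0.45 and the root count of iodide-specific genes 1 in place of 3, as AT3G47540 and ChiC then missed 4-fold. At a log2 ratio of 1 the iodide-specific genes numbered 4 in shoot and 5 in root. Of all probe sets, 1.27% in shoot and 5.6% in root were 2-fold higher in both iodide salts, with no condition on KBr. At 2.5 they numbered 1 in root, and genes past that fold in both iodide salts 1 in each organ. The share of all probe sets at 2.5 is not given here. Of 275 comparisons for single genes, 249 stayed within 0.5, and 5 turned sign, all of them small shoot ratios. Against KBr the NaI ratio of AT2G43610 was -0.10 and those of AT2G43620 were 0.31 in NaI and 0.13 in KI, and against the mean of control and KBr its NaI ratio was 0.12. With arrays scaled to the same median the NaI ratio of ChiC was -0.02. Signals near or under 100 set the limit of precision in shoot.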

Other observations

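Other defence genes were covered thinly. Of 10 further pathogenesis-related genes, 4 had a probe set, all 4 reached 100 in shoot and 0 did in root. PDF1.2b, an antifungal defensin gene of the jasmonate and ethylene pathway, was at 158 (control shoot), 412 (KBr), 1016 (NaI) and 437 (KI), so the KBr and KI signals were close, and its probe set is of the type that can also pick up related transcripts. Of 15 genes of chitin perception, 3 had a probe set and 2 reached 100. The receptor-like kinase gene BIK1 was at 752 (control root), 846 (KBr), 1309 (NaI) and 1156.5 (KI), and at 342, 410.4, 353 and 400.2 in shoot. WRKY53, a transcription factor gene of defence and senescence, was at 434, 512, 625 and 667 in root and at 157, 158, 414 and 212 in shoot. None of these reached 4-fold in both iodide salts. Of 10 callose synthase genes, 0 were named alone by a probe set.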
